A study of Mus musculus with 36 samples.

Results

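The genes described here are 40 that mark or act in the endothelium of the liver, taken by symbol from a table of raw read counts for 32544 gene symbols. All 40 were in the table, and all 40 had enough counts to be among the 15338 genes tested. They comprise 18 genes of sinusoidal identity, 5 genes that most endothelial cells use, and 17 genes of capillary, angiogenic, arterial, venous or activated endothelium. Whole livers of male C57BL/6N mice, 8 to 10 weeks old at the start, were profiled by stranded total RNA sequencing after removal of ribosomal RNA. The treated groups received carbon tetrachloride (CCl4), a hepatotoxin, dissolved in olive oil and injected intraperitoneally 2 times a week for 2, 6 or 12 months, with 1 g of CCl4 for each kg of mouse. The oil groups received olive oil alone for 2 or 12 months, and a month 0 group is titled control although its treatment label reads olive oil. Each of the 6 groups held 6 libraries, and tissue of the month 2, 6 and 12 groups was collected 6 days after the final dose. A month 6 oil group was not analysed here, so month 6 CCl4 was set against the mean of both oil groups on the log scale. The month 6 comparison therefore shares oil mice with the month 2 and the month 12 comparison and is independent of neither.

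Liver sinusoids are lined by a fenestrated endothelium without an organised basement membrane, which clears waste molecules from blood through scavenger receptors and sends Wnt, R-spondin and BMP ligands to hepatocytes. In chronic injury this lining is known to lose fenestrae and to take on features of ordinary capillaries, which is called capillarization. Angiogenic endothelium elsewhere in the body is marked by tip-cell genes such as Esm1 and Apln and by Notch ligands.

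Libraries held between 19403247 and 28917545 counts, and CPM below means reads of a gene for each 1000000 counts of its library after TMM scaling, which sets the median gene near no change. Adjusted p-values are those of edgeR's quasi-likelihood test with Benjamini-Hochberg adjustment over all tested genes, and a gene was called below 0.05. They measure the spread between libraries that the titles number as replicates, each taken here as 1 mouse. The defining endothelial genes were present throughout: in the month 0 group Stab2 lay between 94.8 and 127 CPM and Pecam1 between 26.5 and 35.7 CPM. The 40 genes together took a median of 0.109% of all counts in month 2 CCl4 livers against 0.0782% in month 2 oil livers, and 0.119% in month 12 CCl4 livers against 0.0761% in month 12 oil livers. These are shares of library totals, a scale on which the median gene also rose, by 0.20 at month 2 and 0.56 at month 12 (log2). The shares therefore hold a shift common to most genes. In whole liver a change in the number of cells of a type and a change in RNA per cell cannot be told apart. Month 12 oil replicate 2 stood apart, with a summed level of 5 mesothelial markers of 103.7 CPM against a median of 19.3 CPM in its group. So did month 6 CCl4 replicate 2, at 82.8 CPM against a median of 29.2 CPM, with the highest summed stellate (1255 CPM, median 809) and monocyte-derived macrophage markers (611 CPM, median 239) of its group. Scaling by library totals alone, without TMM, raised the median gene by 0.20 on the log2 scale at month 2, 0.31 at month 6 and 0.56 at month 12, so all changes below are relative to the median gene.

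The promoters of 4 genes are shown because they belong to genes with opposite courses at month 12: Esm1 and Apln were called higher in CCl4 livers, and Clec4g and Wnt2 were called lower. Each window runs 250 bases before to 50 bases after the gene start, 5′ to 3′ on the gene's strand, from RefSeq on GRCm38.p6. They lie at chr13:113209409-113209708 on the plus strand for Esm1, and on the minus strand at chrX:48034804-48035103 for Apln, chr8:3720602-3720901 for Clec4g and chr6:18030396-18030695 for Wnt2. Capitals mark CAGGAA or its reverse complement TTCCTG, a core of sites for ETS factors, a family that includes the endothelial regulators Erg and Fli1.

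Esm1: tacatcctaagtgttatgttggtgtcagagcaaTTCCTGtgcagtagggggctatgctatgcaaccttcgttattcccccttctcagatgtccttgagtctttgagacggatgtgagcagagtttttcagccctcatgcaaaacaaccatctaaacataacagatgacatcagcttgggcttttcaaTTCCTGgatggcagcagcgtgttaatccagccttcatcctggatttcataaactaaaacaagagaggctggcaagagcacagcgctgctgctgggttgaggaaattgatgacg
Apln: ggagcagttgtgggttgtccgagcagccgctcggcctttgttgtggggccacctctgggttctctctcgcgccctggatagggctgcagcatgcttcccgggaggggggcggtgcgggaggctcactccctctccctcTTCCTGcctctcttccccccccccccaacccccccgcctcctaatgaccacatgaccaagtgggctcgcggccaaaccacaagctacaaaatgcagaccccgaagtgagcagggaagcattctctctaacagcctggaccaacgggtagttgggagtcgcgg
Clec4g: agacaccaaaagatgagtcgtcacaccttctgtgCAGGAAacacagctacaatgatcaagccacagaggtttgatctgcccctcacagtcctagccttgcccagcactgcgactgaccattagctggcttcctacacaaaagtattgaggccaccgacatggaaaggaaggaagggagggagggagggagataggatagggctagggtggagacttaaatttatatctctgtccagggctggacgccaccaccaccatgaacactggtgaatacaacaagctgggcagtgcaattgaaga
Wnt2: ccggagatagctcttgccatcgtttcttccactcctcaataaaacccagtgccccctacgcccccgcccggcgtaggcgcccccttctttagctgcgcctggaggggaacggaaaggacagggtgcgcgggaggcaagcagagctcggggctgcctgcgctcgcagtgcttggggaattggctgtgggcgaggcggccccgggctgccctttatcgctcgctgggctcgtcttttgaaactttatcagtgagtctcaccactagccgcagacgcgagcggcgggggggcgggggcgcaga

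The Esm1 window held 2 matches, those of Apln and Clec4g held 1 each, and that of Wnt2 held 0. Of the 23 members with a window in the RefSeq table, 12 held this motif on either strand, or 52.2%, against 30.6% of all 32851 windows. The motif was present in genes that rose at month 12 and in genes that fell. Other cores were rarer among the 23 windows: the GATA core AGATAA was in 4 (11.2% of all windows), the RBPJ core TGGGAA in 4 (25.6%), the second ETS core CCGGAA in 1 (14.9%) and the SOX core AACAAT in 2 (10.7%). The hypoxia core ACGTG was in 1 (19.6%), and its longer form GACGTG, which contains it, was in 0 (6.38%). The SOX core ACAATGG, which shares ACAAT with the shorter form, and the AP-1 site TGACTCA were in 0 windows each (3.66% and 5.20% of all windows). A match is a run of letters and not a site shown to be bound.

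At month 2 the endothelial genes that were called were all higher in CCl4 livers, and at month 12 the classes parted. At month 6 no sinusoidal gene was called, but Stab1, Lyve1, Fcgr2b, Flt4 and Maf lay at edgeR adjusted p of 0.0544 to 0.0604, and these 5 were called higher without month 12 oil replicate 2. Leaving out any other mouse gave 0 to 2 sinusoidal calls at month 6, DESeq2 gave 2 and the compared groups alone gave 3. Of the 40 members 11 rose at month 2 and 0 fell, where 7.0% of all tested genes rose and 3.38% fell. At month 6, 7 rose and 0 fell, where 7.71% rose and 3.68% fell. At month 12 the split was 18 higher and 10 lower, where 25.9% of tested genes rose and 23.2% fell. Among the 18 sinusoidal genes 3 rose and 8 fell at month 12, among the 5 pan-endothelial genes 3 rose and 1 fell, and among the 17 capillary, angiogenic and vascular genes 12 rose and 1 fell. Their median log2 fold changes at month 12 were -0.26, 0.45 and 0.84 in that order, beside 0.01 over all tested genes. At month 2 the corresponding medians were 0.30, 0.30 and 0.45, and at month 6 they were 0.09, 0.17 and 0.44, beside 0.00 over all tested genes at both times. Which sinusoidal genes count as lower depends on the scaling: with library totals alone 28 members (8 of them sinusoidal) were called higher and 0 lower at month 12, 30 and 0 at month 6, and 26 and 0 at month 2. Under that scaling 10331 of the 15338 tested genes were called higher and 592 lower at month 12. The counts over all tested genes were 8884 and 177 at month 6, and 3160 and 179 at month 2. A further fit left out 5 libraries, chosen after seeing the data for transcripts of other tissue, blood or mesothelium. Left out were replicates 1 and 6 of month 2 CCl4 and replicate 2 of month 2 oil, month 6 CCl4 and month 12 oil. Libraries that were kept also held such transcripts. Markers of intestine and pancreas summed to 10234 CPM in month 2 CCl4 replicate 5 (group median 336) and 8584 CPM in month 12 oil replicate 4 (group median 1328). In this fit 5 members were called at month 2, 7 at month 6 and 29 at month 12. Those at month 2 were Lyve1, Maf, Tie1, Vwf and Ackr1, but not Kdr, Wnt9b, Plvap, Esm1, Sox17 and Edn1. At month 6 they held 5 of the 7 main calls (not Pecam1 and Nos3), and at month 12 they held 26 of the 28 (not Fcgr2b and Wnt2).

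**Figure D1:**
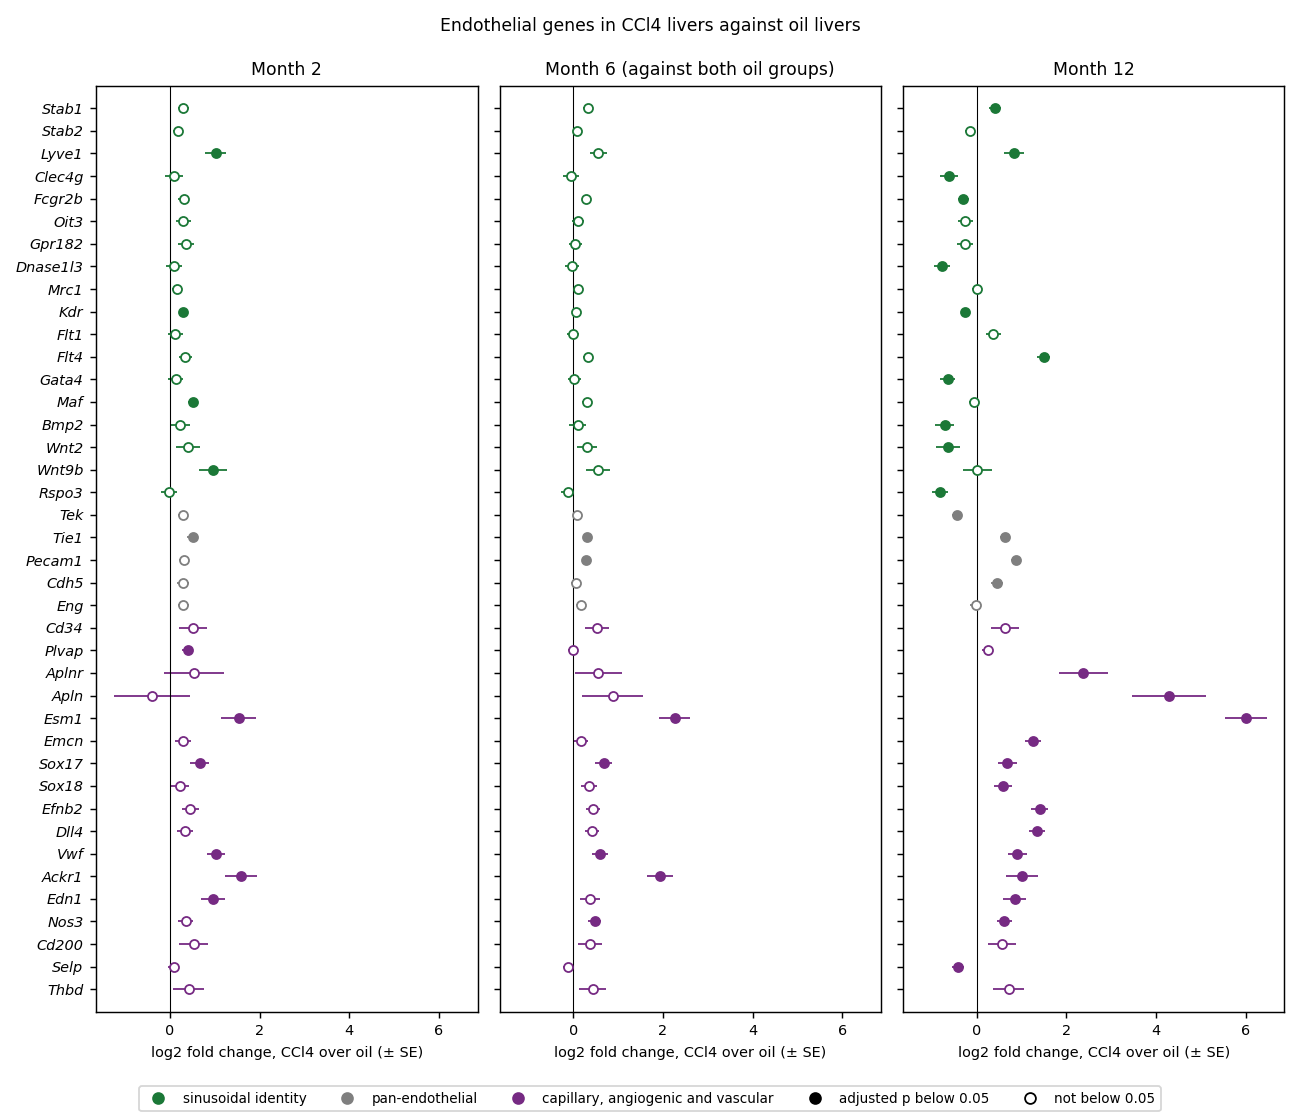
Log2 fold change (horizontal axis, CCl4 over oil, bars ± SE) of each of the 40 endothelial genes (rows) at months 2, 6 and 12, coloured by class and filled where the adjusted p was below 0.05. At month 12 sinusoidal genes spread from -0.82 for Rspo3 to 1.49 for Flt4, while Esm1 reached 6.01.

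The scavenger and surface genes of the sinusoid include the hyaluronan and debris receptors Stab1, Stab2 and Lyve1, the lectins Clec4g and Mrc1, the inhibitory Fc receptor Fcgr2b, the secreted nuclease Dnase1l3, the receptor Gpr182 and Oit3, a secreted zona pellucida domain protein. Lyve1 (chromosome 7, 110850607 to 110863239, mm10) ran between 16.3 and 20.4 CPM with a median of 19.3 in month 2 CCl4 livers, and between 5.43 and 14.8 CPM with a median of 8.68 in month 2 oil livers. All 6 CCl4 mice lay above all 6 oil mice, which held for 4.64% of tested genes, and the log2 fold change was 1.02 ± 0.23 (SE), adjusted p = 0.0042 by edgeR. At month 12 it again rose, to between 14.7 and 29.8 CPM (median 17.5) in CCl4 livers against 7.71 to 20.2 CPM (median 10.3) in oil livers, a log2 fold change of 0.83 ± 0.23, adjusted p = 0.00334 by edgeR. Here the groups overlapped, and the highest oil mouse was replicate 2. Stab1 rose at month 12 by 0.40 ± 0.13 on the log2 scale (edgeR adjusted p = 0.0111), with 65.8 to 109 CPM (median 84.9) in CCl4 livers and 51.1 to 92.6 CPM (median 64.5) in oil livers, and the groups overlapped.

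Dnase1l3 (chromosome 14, 7964533 to 7994573) fell at month 12 and did not pass the test before. It lay between 10.1 and 28.7 CPM with a median of 20.8 in CCl4 livers, and between 26.5 and 40.5 CPM with a median of 34.7 in oil livers. Of the 6 CCl4 mice 4 were below the lowest oil mouse, and the log2 fold change was -0.78 ± 0.18 with an edgeR adjusted p of 0.000501. Clec4g also fell at month 12, by 0.63 on the log2 scale, with 12.1 to 62.4 CPM in CCl4 livers and 59.6 to 73.1 CPM in oil livers. Its change was -0.41 without month 12 CCl4 replicate 6, the mouse at 12.1 CPM, and still called (edgeR adjusted p = 0.0152), while it was not called when only the compared groups were fitted (-0.60). Fcgr2b fell by 0.30 on the log2 scale, with 28.2 to 54.7 CPM in CCl4 livers and 47.1 to 66.2 CPM in oil livers. With library totals alone it was at 0.23, and with the compared groups alone it was not called (-0.28). The call was lost without any of 5 mice, CCl4 replicates 2, 5 and 6 and oil replicates 1 and 2, and without CCl4 replicate 2 the change was -0.18. Per kb of exon Clec4g had the highest level of the 40 genes in month 12 oil livers, 27.4 CPM per kb, ahead of Mrc1 at 18.9, Plvap at 11.7, Stab2 at 10.8 and Oit3 at 10.1.

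The remaining surface genes did not pass the test in any comparison of CCl4 with oil. At month 12 their log2 fold changes were -0.15 for Stab2, -0.26 for Oit3, -0.26 for Gpr182 and -0.00 for Mrc1, and at month 2 they ranged from 0.15 for Mrc1 to 0.35 for Gpr182. Stab1, Lyve1, Fcgr2b, Mrc1 and Maf are also expressed by macrophages. A list of 9 markers of monocyte-derived macrophages summed to between 495 and 1314 CPM in month 12 CCl4 livers and between 86.1 and 176 CPM in month 12 oil livers, and 9 of the 9 rose. A list of 9 Kupffer cell markers summed to between 375 and 1066 CPM in month 12 CCl4 livers and between 760 and 1008 CPM in oil livers, and 1 rose and 3 fell. At month 2, when Lyve1 and Maf rose, the monocyte-derived markers summed to between 195 and 303 CPM in CCl4 livers and between 78.2 and 180 CPM in oil livers, and 7 of the 9 rose (median log2 fold change 1.09). Of the 9 Kupffer cell markers 3 rose and 1 fell at month 2, and of 10 stellate cell and fibroblast markers 4 rose and 0 fell. At month 12, 2 of these stellate cell and fibroblast markers rose and 3 fell. Of all tested genes 7.0% rose and 3.38% fell at month 2, and 25.9% rose and 23.2% fell at month 12. None of these lists had a gene at 0 in any group, and the part of macrophages in the levels of these 5 genes was not tested.

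The 3 VEGF receptors took different courses at month 12. Flt4 (chromosome 11, 49609263 to 49652739), the receptor for VEGF-C and VEGF-D, lay between 34.5 and 79.4 CPM with a median of 53.1 in CCl4 livers and between 15.9 and 25.3 CPM with a median of 18.5 in oil livers. Every CCl4 mouse was above every oil mouse, which held for 12.1% of tested genes, and the log2 fold change of 1.49 ± 0.14 was the largest of the 18 sinusoidal genes (edgeR adjusted p = 1.59e-10). Kdr (chromosome 5, 75932827 to 75978458), the main VEGF-A receptor, rose at month 2 and fell at month 12. At month 2 it ran between 75.6 and 90.6 CPM (median 81.4) in CCl4 livers and between 58.3 and 77.2 CPM (median 65.7) in oil livers, a log2 fold change of 0.30 ± 0.08 with an edgeR adjusted p of 0.0124. At month 12 it ran between 53.4 and 72.4 CPM (median 57.9) in CCl4 livers and between 65.0 and 76.9 CPM (median 72.4) in oil livers, a log2 fold change of -0.26 ± 0.08 with an edgeR adjusted p of 0.00593. In both cases the groups overlapped, and at month 12 Kdr was called higher, by 0.27, when libraries were scaled by totals alone. Flt1, a decoy-like VEGF receptor, missed the threshold at month 12 (0.37, edgeR adjusted p = 0.0531), and was at 0.12 at month 2 and -0.01 at month 6.

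A ratio of 2 genes within a library does not depend on the scaling. The Flt4 to Kdr ratio of raw counts was between 0.647 and 1.46 in month 12 CCl4 livers, and between 0.221 and 0.329 in month 12 oil livers, with no overlap. At month 2 it was between 0.293 and 0.349 in CCl4 livers and between 0.250 and 0.365 in oil livers, and at month 6 it was between 0.323 and 0.381. The ratios were chosen after the values were seen and carry no test. Flt4 also marks lymphatic vessels, and 5 lymphatic markers summed to between 58.0 and 72.4 CPM in month 12 CCl4 livers and between 51.3 and 145 CPM in month 12 oil livers. Of the 4 lymphatic markers tested, 0 rose and 1, Prox1, fell (-0.60 ± 0.22, edgeR adjusted p = 0.0251), and none of the 5 was at 0. Among all tested genes 25.9% rose and 23.2% fell at month 12. Prox1 is also a hepatocyte gene.

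Gata4 (chromosome 14, 63198922 to 63271692), a transcription factor needed for sinusoidal differentiation in the mouse, fell at month 12. It lay between 3.22 and 9.95 CPM with a median of 7.77 in CCl4 livers, and between 10.6 and 12.3 CPM with a median of 11.6 in oil livers. Every CCl4 mouse was below every oil mouse, which held for 10.2% of tested genes, and the log2 fold change was -0.65 ± 0.17 with an edgeR adjusted p of 0.00175. Maf, another sinusoidal transcription factor, rose at month 2 by 0.51 ± 0.12 (edgeR adjusted p = 0.00496), with 35.9 to 54.7 CPM (median 44.8) in CCl4 livers and 29.4 to 36 CPM (median 31.9) in oil livers. The groups touched only at their edges there, while at month 12 Maf was at -0.06 and not called.

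Of the 4 angiocrine ligands, 3 fell at month 12 and 0 rose, where 23.2% of tested genes fell and 25.9% rose. Rspo3 (chromosome 10, 29452416 to 29535867), the R-spondin that enhances Wnt signalling in pericentral hepatocytes, lay between 2.12 and 6.75 CPM with a median of 4.75 in CCl4 livers and between 6.82 and 9.75 CPM with a median of 8.11 in oil livers. The groups did not overlap, and the log2 fold change was -0.82 ± 0.18 with an edgeR adjusted p of 0.000222. Bmp2, which signals to hepatocytes in iron regulation, lay between 3.33 and 14 CPM (median 10.1) in CCl4 livers and between 11.7 and 18.5 CPM (median 15) in oil livers, a log2 fold change of -0.72 ± 0.22 with an edgeR adjusted p of 0.00733. Its groups overlapped in the 3 CCl4 mice above the lowest oil mouse, and it was not called when only the compared groups were fitted (-0.70).

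Wnt2, whose promoter is printed above, lay between 0.496 and 4.81 CPM (median 3.19) in month 12 CCl4 livers and between 3.43 and 5.09 CPM (median 4.66) in month 12 oil livers. Its log2 fold change was -0.64 ± 0.27 with an edgeR adjusted p of 0.0471, and 3 CCl4 mice stood within the oil range. Without CCl4 replicate 6, the mouse at 0.496 CPM, the change was -0.39 and not called, and the call was also lost without CCl4 replicate 2 or 5 or without oil replicate 1, 2, 3, 5 or 6, and when only the compared groups were fitted (-0.61). Wnt9b, the other endothelial Wnt of the central vein, rose at month 2 with 1.21 to 3.06 CPM (median 2.32) in CCl4 livers and 0.776 to 1.5 CPM (median 1.02) in oil livers. Its log2 fold change was 0.96 ± 0.32 with an edgeR adjusted p of 0.0488, a call that ended when 8 of the 12 mice were left out in turn (CCl4 replicates 3 to 6 and oil replicates 1 and 4 to 6), and at month 12 it was at 0.01.

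**Figure D2:**
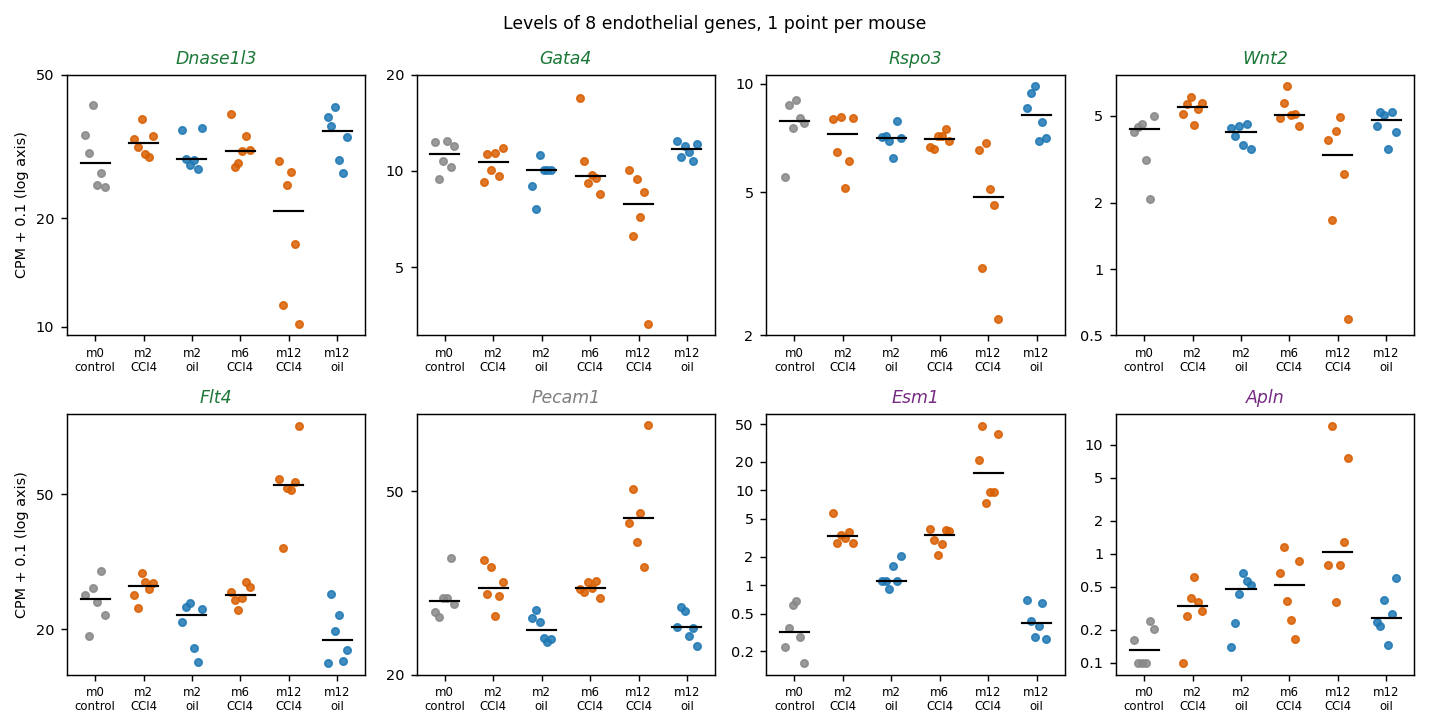
Levels of 8 endothelial genes (CPM + 0.1, log axis), 1 point per mouse and a line at the group median, in the order month 0 control, month 2 CCl4 and oil, month 6 CCl4, month 12 CCl4 and oil. Gata4 and Rspo3 of month 12 CCl4 mice lie below all month 12 oil mice, and Flt4, Pecam1 and Esm1 lie above them.

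The 5 pan-endothelial genes did not move as a block. Pecam1 (chromosome 11, 106654217 to 106750628), the junctional adhesion molecule CD31, lay between 34.2 and 69.7 CPM with a median of 43.8 in month 12 CCl4 livers and between 23 and 28 CPM with a median of 25.2 in month 12 oil livers. The groups did not overlap, and the log2 fold change was 0.88 ± 0.11 with an edgeR adjusted p of 3.25e-08. At month 6 it rose by 0.28 ± 0.09 (edgeR adjusted p = 0.0392), with 29.2 to 31.9 CPM (median 30.7) in CCl4 livers, above the highest of all 12 oil mice, which held for 0.867% of tested genes. Month 2 oil livers held 23.4 to 27.5 CPM (median 24.9). That call was lost when 14 of the 18 mice were left out in turn, and the same was so for Tie1 at month 6. Against month 12 oil alone neither was called at month 6. No member lay below all its oil mice at month 2 or month 6, where 2.40% and 0.945% of tested genes did. Cdh5, the adherens junction cadherin, rose at month 12 by 0.45 (edgeR adjusted p = 0.00648), with 29.5 to 51.1 CPM in CCl4 livers and 24.1 to 36 CPM in oil livers. Eng, a co-receptor for BMP9 and TGF-beta, was at 0.29, 0.17 and -0.02 at months 2, 6 and 12 and was not called.

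The related receptors Tie1 and Tek (Tie2, which binds angiopoietins) parted at month 12. Tie1 rose at month 2 (0.51 ± 0.12, edgeR adjusted p = 0.00523), with 12.4 to 18.7 CPM (median 15.9) in CCl4 livers and 8.35 to 13.2 CPM (median 10.8) in oil livers. It rose at month 6 (0.31 ± 0.10, edgeR adjusted p = 0.0431), with 12.9 to 16.3 CPM (median 14.4), and at month 12 (0.63 ± 0.12, edgeR adjusted p = 5.35e-05), with 13.2 to 22.1 CPM (median 19.3) in CCl4 livers and 10.5 to 15.6 CPM (median 11.2) in oil livers. At months 2 and 12 the CCl4 and oil groups overlapped at their edges, and at month 6, 1 of the 6 CCl4 mice lay above all 12 oil mice. Tek fell at month 12 (-0.44 ± 0.12, edgeR adjusted p = 0.00272), with 10.6 to 21.1 CPM (median 17.5) in CCl4 livers and 19.8 to 23.7 CPM (median 22.3) in oil livers, and with library totals alone it was at 0.10. Their raw count ratio, Tie1 over Tek, was between 0.788 and 2.10 in month 12 CCl4 livers and between 0.462 and 0.722 in month 12 oil livers, with no overlap. At month 2 the same ratio was between 0.514 and 0.838 in CCl4 livers and between 0.446 and 0.703 in oil livers, which overlap.

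Set against Pecam1 in the same library, the 3 sinusoidal genes examined, Rspo3, Dnase1l3 and Wnt2, were lower at month 12 in every CCl4 mouse than in every oil mouse. The ratio of Rspo3 to Pecam1 was between 0.0305 and 0.175 in month 12 CCl4 livers and between 0.282 and 0.356 in month 12 oil livers. That of Dnase1l3 to Pecam1 was between 0.144 and 0.674 in CCl4 livers and between 1.05 and 1.5 in oil livers, and that of Wnt2 to Pecam1 between 0.00711 and 0.107 in CCl4 livers and between 0.142 and 0.202 in oil livers. Pecam1 itself rose most of the 5 pan-endothelial genes at month 12 (0.88), so the separation depends in part on its choice as the reference. Tek, another of the 5, fell (-0.44), and ratios of the 3 sinusoidal genes to Tek were not examined. These ratios are descriptions and show unequal change, not which gene of a pair changed.

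**Figure D3:**
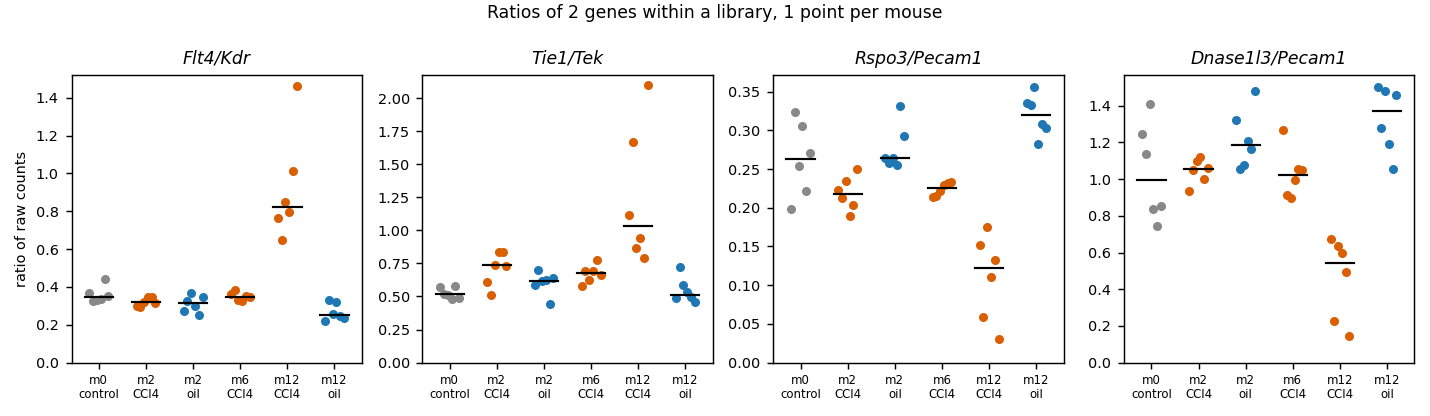
Ratios of raw counts of 2 genes within a library (vertical axis, from 0), 1 point per mouse and a line at the group median, over the 6 groups. In month 12 CCl4 mice Flt4/Kdr (0.647 to 1.46) and Tie1/Tek (0.788 to 2.10) lie above all month 12 oil mice, and Rspo3/Pecam1 and Dnase1l3/Pecam1 lie below them.

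Among the 6 capillary and angiogenic genes, 4 rose at month 12 and 0 fell, where 25.9% of tested genes rose and 23.2% fell. Esm1 (chromosome 13, 113209659 to 113218098), which encodes the proteoglycan endocan of endothelial tip cells, had the largest change of the 40 genes. It ran between 2.68 and 5.72 CPM (median 3.19) in month 2 CCl4 livers, between 1.99 and 3.80 CPM (median 3.26) in month 6 CCl4 livers and between 7.27 and 48.2 CPM (median 15.1) in month 12 CCl4 livers. Oil livers held 0.800 to 1.92 CPM (median 1.01) at month 2 and 0.168 to 0.592 CPM (median 0.294) at month 12. At each time every CCl4 mouse was above every oil mouse it was set against. The log2 fold changes were 1.53 ± 0.39 at month 2 (edgeR adjusted p = 0.00918), 2.26 ± 0.34 at month 6 (adjusted p = 2.44e-05) and 6.01 ± 0.47 at month 12 (adjusted p = 4.59e-12). The 6 month 12 oil libraries held only 47 counts of Esm1 in all, against 4064 in the 6 month 12 CCl4 libraries.

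Esm1 also differed between oil groups without passing the test: its log2 difference of month 12 oil over month 2 oil was -1.80 ± 0.48, edgeR adjusted p = 0.0986. Part of the gap between the month 2 and month 12 fold changes therefore lies in the oil mice. Between CCl4 groups, where the oil mice play no part, Esm1 rose at month 12 over month 6 by 2.85 ± 0.37 (edgeR adjusted p = 3.19e-07).

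Apln (chromosome X, 48025146 to 48034853) encodes apelin, the ligand of the receptor Aplnr, a pair active in sprouting vessels. Apln lay between 0.260 and 14.8 CPM with a median of 0.933 in month 12 CCl4 livers and between 0.0452 and 0.504 CPM with a median of 0.158 in month 12 oil livers. Replicate 2 at 14.8 CPM and replicate 6 at 7.51 CPM stood far above the other 4 CCl4 mice, and the lowest CCl4 mouse was within the oil range. The log2 fold change was 4.29 ± 0.82 (edgeR adjusted p = 6.05e-05), and without CCl4 replicate 2 it was 3.28 and still called. Aplnr rose by 2.38 (edgeR adjusted p = 0.000502), with 0.594 to 1.10 CPM in CCl4 livers and 0 to 0.317 CPM in oil livers and no overlap. It rested on 139 counts in the 6 CCl4 libraries and 20 in the 6 oil libraries, and it had the lowest level per kb of the 40 genes in month 12 oil livers. Neither gene was called at month 2 or month 6.

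Emcn (chromosome 3, 137341067 to 137432185), the sialomucin endomucin of capillaries and veins, lay between 5.79 and 17.5 CPM with a median of 7.81 in month 12 CCl4 livers and between 3.09 and 4.74 CPM with a median of 4.02 in month 12 oil livers. The groups did not overlap, and the log2 fold change was 1.26 ± 0.18 with an edgeR adjusted p of 5.17e-07. Its raw count ratio to Clec4g was between 0.0928 and 1.44 in month 12 CCl4 livers and between 0.0518 and 0.0659 in month 12 oil livers. Plvap, which forms the diaphragms of fenestrae, rose at month 2 by 0.39 ± 0.13 (edgeR adjusted p = 0.0407), with 19.9 to 32 CPM (median 22.2) in CCl4 livers and 14.6 to 22.2 CPM (median 18.5) in oil livers. Its groups overlapped, the call was lost when 8 of the 12 mice were left out in turn (CCl4 replicates 1, 3 and 5 and oil replicates 2 to 6), and at month 12 it was at 0.24 and not called.

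Cd34, a sialomucin of capillary endothelium, was not called, at 0.52, 0.53 and 0.63 at months 2, 6 and 12. At month 12 it lay between 13.2 and 33.9 CPM in CCl4 livers and between 5.53 and 37.5 CPM in oil livers. The oil maximum came from replicate 2, and the other 5 oil mice reached at most 10.9 CPM. Without that mouse the month 12 change was 1.24 and called (edgeR adjusted p = 5.76e-05). Cd34 is also expressed by mesenchymal cells, and replicate 2 had the highest mesothelial and stellate marker sums of its group. Their part in the result was not tested.

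The 4 arterial and Notch or SoxF genes all rose at month 12, where 25.9% of tested genes rose. Sox17 rose at each time against the stated oil groups. Dll4 (chromosome 2, 119325784 to 119335962), a Notch ligand of arterial and tip cells, lay between 3.90 and 9.88 CPM with a median of 5.27 in month 12 CCl4 livers and between 2.03 and 2.92 CPM with a median of 2.19 in month 12 oil livers (1.34 ± 0.18, edgeR adjusted p = 3.48e-07). Efnb2 (chromosome 8, 8617434 to 8661242), the arterial ephrin ligand, lay between 3.83 and 7.29 CPM with a median of 4.86 in CCl4 livers and between 1.58 and 2.49 CPM with a median of 2.05 in oil livers (1.40 ± 0.19, edgeR adjusted p = 3.53e-07). For both genes every CCl4 mouse was above every oil mouse at month 12. At month 2 the same genes were at 0.33 and 0.45 and were not called.

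Sox17, a SoxF transcription factor of arterial endothelium, had log2 fold changes of 0.66 ± 0.22 at month 2, 0.67 ± 0.18 at month 6 and 0.68 ± 0.22 at month 12, with edgeR adjusted p of 0.0453, 0.0134 and 0.0093. Its levels were low, between 1.06 and 2.09 CPM (median 1.42) in month 2 CCl4 livers, between 1.16 and 2.28 CPM (median 1.44) in month 6 CCl4 livers and between 1.23 and 1.96 CPM (median 1.61) in month 12 CCl4 livers. Oil livers held 0.543 to 1.31 CPM (median 0.894) at month 2 and 0.722 to 1.36 CPM (median 1.01) at month 12, so the groups overlapped at each time. The month 2 call was lost when 8 of the 12 mice were left out in turn (CCl4 replicates 1 and 3 to 5 and oil replicates 2, 3, 5 and 6), and the month 6 call was lost without CCl4 replicate 1 and against month 12 oil alone (0.60). Sox18, a related factor, rose at month 12 (0.58, edgeR adjusted p = 0.017), with 2.09 to 4.61 CPM in CCl4 livers and 1.44 to 2.73 CPM in oil livers, a call lost without CCl4 replicate 1 or oil replicate 5.

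Of the 7 genes of vessel tone, coagulation and venous or activated endothelium, 3 rose at month 2, 3 at month 6 and 4 at month 12, and 1 fell at month 12. Among all tested genes 7.0% rose at month 2, 7.71% at month 6 and 25.9% at month 12, and 23.2% fell at month 12. Vwf (chromosome 6, 125546774 to 125686679), the adhesive glycoprotein stored by endothelium of larger vessels and by platelets, rose at each time. It lay between 11.9 and 25.3 CPM (median 19.8) in month 2 CCl4 livers and between 7.03 and 13.3 CPM (median 8.84) in month 2 oil livers (1.02 ± 0.21, edgeR adjusted p = 0.00124). At month 6 it lay between 14.6 and 18.8 CPM (median 18) and the change was 0.60 ± 0.17 (edgeR adjusted p = 0.0211), a call lost without CCl4 replicate 2 and against month 12 oil alone (0.34). At month 12 it lay between 15.6 and 33.9 CPM (median 26.4) in CCl4 livers and between 9.19 and 23.7 CPM (median 11.5) in oil livers (0.91 ± 0.20, edgeR adjusted p = 0.000419). The groups overlapped at each time, and at month 6, 0 of the 6 CCl4 mice lay above all 12 oil mice. The month 12 oil maximum of 23.7 CPM came from replicate 2, and the others reached at most 15.6 CPM. A list of 5 platelet and megakaryocyte markers summed to between 7.06 and 13.7 CPM (median 8.31) in month 12 CCl4 livers. In month 12 oil livers the sum was between 4.04 and 19.4 CPM (median 5.30), with the maximum in replicate 2. None of the 5 was at 0, 1 of the 4 tested rose, and their part in the Vwf change was not tested.

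Ackr1, the atypical chemokine receptor of venules, rose at each time, and its largest change was at month 6. It lay between 0.639 and 1.81 CPM (median 1.37) in month 2 CCl4 livers and between 0.137 and 0.704 CPM (median 0.433) in month 2 oil livers (1.57 ± 0.36, edgeR adjusted p = 0.00372). At month 6 it lay between 1.08 and 1.85 CPM (median 1.57), above all 12 oil mice (1.94 ± 0.29, edgeR adjusted p = 2.17e-05). At month 12 the change was 1.01, with 0.212 to 1.39 CPM in CCl4 livers and 0.135 to 0.547 CPM in oil livers, and the call was lost without CCl4 replicate 1 or oil replicate 4, and when only the compared groups were fitted (1.03). Ackr1 fell at month 12 against month 6 among CCl4 mice, by 1.06 on the log2 scale (edgeR adjusted p = 0.0122), the only vascular gene of the 17 to do so. An exon of Cadm3 lies within the annotated span of Ackr1 on the same strand, so the reads of the 2 genes may not be fully separated.

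Edn1, the vasoconstrictor endothelin-1, and Nos3, the endothelial nitric oxide synthase, both rose at month 12. Edn1 lay between 0.897 and 1.78 CPM (median 1.31) in CCl4 livers and between 0.408 and 1.05 CPM (median 0.800) in oil livers (0.84 ± 0.26, edgeR adjusted p = 0.00735). It also rose at month 2 (0.96 ± 0.27, adjusted p = 0.0186), with 0.547 to 1.41 CPM (median 0.935) in CCl4 livers and 0.269 to 0.704 CPM (median 0.483) in oil livers, a call lost without CCl4 replicate 1 or 6 or oil replicate 1. Nos3 lay between 3.49 and 5.06 CPM (median 4.12) in month 12 CCl4 livers and between 1.98 and 3.85 CPM (median 2.93) in month 12 oil livers (0.61 ± 0.17, edgeR adjusted p = 0.00278). At month 6 it rose by 0.47 ± 0.14 (edgeR adjusted p = 0.026), with 3.11 to 4.28 CPM (median 3.80), where month 2 oil livers held 1.96 to 3.27 CPM (median 2.78). All of these groups overlapped, and the month 6 call of Nos3 ended when CCl4 replicate 2, 5 or 6 was left out, and likewise for replicates 4 and 5 of month 12 oil, and against month 12 oil alone (0.42).

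Selp, the adhesion molecule P-selectin, was the vascular gene that fell at month 12 (-0.42, edgeR adjusted p = 0.0075), with 3.68 to 6.71 CPM in CCl4 livers and 6.11 to 7.70 CPM in oil livers, and with library totals alone it was at 0.13. Cd200, an inhibitory surface ligand, and Thbd, the anticoagulant thrombomodulin, were not called, at 0.56 and 0.71 at month 12. Both had their highest oil value in replicate 2, 7.25 CPM for Cd200 and 27.6 CPM for Thbd, where the other 5 oil mice reached at most 2.52 and 6.94 CPM. Without that mouse both were called at month 12, Cd200 at 1.08 (edgeR adjusted p = 0.00104) and Thbd at 1.35 (edgeR adjusted p = 0.000151), and the count of members was 22 higher and 8 lower. At month 6 the count without it was 15 higher, against 7 with it. Month 6 calls were also fewer without CCl4 replicate 2 (3 members), and without replicate 5 or 6 of that group (4 members each), as without replicate 4 or 5 of month 12 oil (4 members each).

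The interaction asks whether the CCl4 effect at month 12 differs from that at month 2. It was called for 17 members, 7 with a higher and 10 with a lower effect at month 12, where 11.2% of tested genes had a higher and 10.1% a lower effect. Of the 10 lower effects 8 were in sinusoidal genes, Fcgr2b, Dnase1l3, Kdr, Gata4, Maf, Bmp2, Wnt2 and Rspo3, and the others were Tek and Selp. Their values ran from -1.04 ± 0.38 for Wnt2 to -0.50 ± 0.18 for Selp. The higher effects were in Flt4, Pecam1, Apln, Esm1, Emcn, Efnb2 and Dll4, from 0.56 ± 0.15 for Pecam1 to 4.70 ± 1.18 for Apln. Like Esm1, Efnb2 and Dll4 were lower in month 12 oil than in month 2 oil, without being called. Their medians were 2.05 against 2.97 CPM and 2.19 against 3.38 CPM, so part of these effects lies in the oil mice. In the other direction, 15 of the 18 sinusoidal genes were higher in month 12 oil than in month 2 oil, and none was called. The 4 angiocrine ligands were higher by 0.17 to 0.31 (log2) and the 2 transcription factors by 0.22 to 0.27. Part of their lower effects therefore also lies in the oil mice. Kdr (-0.56 ± 0.11, edgeR adjusted p = 0.000411) was the only member called in opposite directions at months 2 and 12. Without the 5 libraries named for transcripts of other tissue, blood or mesothelium, 11 of the 17 were called, and Gata4, Maf (-0.37), Bmp2, Wnt2, Rspo3 and Selp were not. With library totals alone the 7 higher effects were called and none of the 10 lower ones was. Under that scaling 5115 of the 15338 tested genes had a higher effect and 438 a lower one. Bmp2 lost its call when replicate 2 of month 12 CCl4 or replicate 6 of month 2 CCl4 was left out, and Wnt2 and Selp lost their call without most single mice (17 and 19 of 24).

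Between CCl4 groups, members were called for month 12 against month 6 and not for month 6 against month 2. Between month 6 and month 2 none of the 40 members was called by edgeR, 1 had an unadjusted p below 0.05, and 0.274% of tested genes rose and 0.228% fell. Between month 12 and month 6, 14 members rose and 11 fell, where 20.6% of tested genes rose and 18.6% fell. Of the sinusoidal genes 2 rose (Flt1 and Flt4) and 9 fell, and Oit3 was among the 9 (-0.42, edgeR adjusted p = 0.0376) although it was not called against oil. Of the vascular genes 9 rose and 1 fell.

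The oil groups were compared with each other and with the month 0 control. Month 12 oil against month 2 oil gave 0 calls among the members with edgeR, 6 unadjusted p below 0.05 and 1 call with DESeq2, where 0.0391% of tested genes rose and 0.0326% fell. Month 2 oil against the month 0 control gave 3 higher and 8 lower members, where 14.8% rose and 16.4% fell. The 8 were Lyve1 (-1.0 ± 0.23), Clec4g, Gpr182, Flt1, Wnt9b, Plvap, Vwf and Nos3, and the 3 were Esm1 (2.04 ± 0.51), Efnb2 and Selp. Lyve1 lay between 5.43 and 14.8 CPM in month 2 oil livers and between 13.1 and 31.4 CPM in month 0 control livers, so its month 2 CCl4 level of 16.3 to 20.4 CPM was above oil and within the month 0 range. The month 0 and month 2 mice differ in age and in months of injections, and these cannot be told apart. Whether the month 0 mice received any oil is not settled by the labels. The count of 11 was 5 to 7 without month 0 replicate 3 or 5 or month 2 oil replicate 2, 4, 5 or 6.

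The month 12 CCl4 mice differed among themselves. Replicates 2 and 6 together held the lowest value of the group in 17 of the 18 sinusoidal genes (5 and 12 genes) and the highest in 12 of the 17 vascular genes (6 each). Replicate 6 had the lowest Clec4g (12.1 CPM), Gata4 (3.22 CPM) and Wnt2 (0.496 CPM) and the highest Flt4 (79.4 CPM), Pecam1 (69.7 CPM) and Emcn (17.5 CPM). Replicate 2 had the highest Esm1 (48.2 CPM) and Apln (14.8 CPM). Replicate 6 also had the highest sum of monocyte-derived macrophage markers (1314 CPM), and the part of these cells in its values was not tested. In the other 4 mice Esm1 was between 7.27 and 20.7 CPM, still above every oil mouse. Gata4 (7.07 to 9.95 CPM) and Rspo3 (4.52 to 6.75 CPM) were still below every oil mouse in these 4. Wnt2 (2.60 to 4.81 CPM) and Clec4g (49.4 to 62.4 CPM) overlapped the oil ranges of 3.43 to 5.09 and 59.6 to 73.1 CPM. No fit left out replicates 2 and 6 together.

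**Figure D4:**
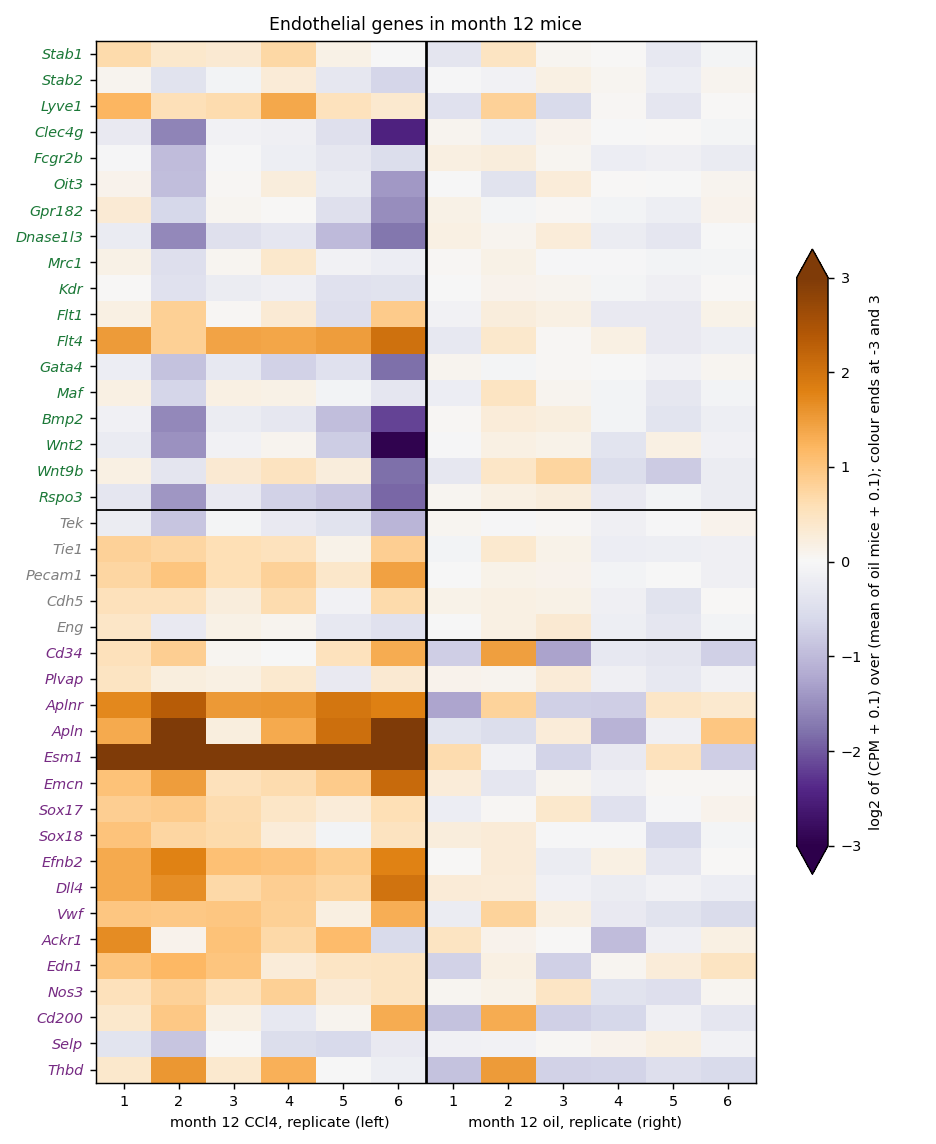
Level of each of the 40 endothelial genes (rows, gene names coloured by class) in each month 12 mouse (columns, CCl4 left and oil right), as log2 of CPM + 0.1 over the mean of the oil mice + 0.1, purple lower and orange higher. Among the CCl4 mice alone, replicates 2 and 6 hold the lowest value in 17 of the 18 sinusoidal genes.

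Other genes of the same pathways, from lists beside the 40, were counted in the same fit. Of all tested genes 7.0% rose and 3.38% fell at month 2, and 7.71% rose and 3.68% fell at month 6. At month 12, 25.9% rose and 23.2% fell. Of 24 further pan-endothelial genes 10 rose and 0 fell at month 2, 4 rose and 1 fell at month 6, and 11 rose and 2 fell at month 12, with a month 12 median of 0.23. Those with the smallest p at month 12 were Ecscr (1.19), S1pr1 (-0.94), the sphingosine-1-phosphate receptor, and Calcrl (-0.55), the adrenomedullin receptor. Of 10 further sinusoidal genes 3 rose and 4 fell at month 12, with log2 fold changes from -1.87 to 0.86. The smallest p belonged to 3 that fell, Lifr (-1.87), Ehd3 (-0.79) and F8 (-0.59), the coagulation factor VIII that sinusoidal cells produce. Lifr is also a hepatocyte gene. Of 22 tested ligands, receptors and targets of VEGF, angiopoietin, Notch, BMP and endothelin signalling, 2 rose at month 2, 5 rose at month 6, and 10 rose and 4 fell at month 12. Angpt2 (2.40 ± 0.31), the angiopoietin of sprouting vessels, Notch4 (1.46 ± 0.22) and the Notch target Hey1 (1.52 ± 0.25) had the smallest p at month 12. Hey1 and the endothelin receptor gene Ednrb were the 2 that rose at month 2, by 1.51 and 0.84.

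On the hepatocyte side, 20 receptors and targets of Wnt and BMP signals had 0 calls at month 2, 1 lower at month 6, and 1 higher and 8 lower at month 12, with a month 12 median of -0.39. At month 12, 25.9% of all tested genes rose and 23.2% fell. Lrp6 (-0.42 ± 0.08), Lgr4 (-0.50 ± 0.10), the R-spondin receptor, and Fzd8 (-1.18 ± 0.25) had the smallest p. A list of 5 hepatocyte markers summed to between 55694 and 95405 CPM in month 12 CCl4 livers and between 49897 and 93248 CPM in month 12 oil livers, and 3 of the 5 fell. None was at 0, and the part of hepatocyte RNA in the counts of this list was not tested.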

How the data were processed

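Raw read counts per gene symbol of 36 mouse liver libraries, as deposited by the authors, were used. Per the labels' protocols, reads came from stranded, ribosomal RNA-depleted, paired-end libraries and were mapped with Biojupies. The submitters' processing notes name mm10, edgeR 3.30.3 and limma 3.44.3, and the gene annotation and the use of strand are not given in the sources used here. Exons of another annotated gene lie within the span of 19 of the 40 members, of which 6 have a protein-coding neighbour.

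From these counts, genes were filtered with filterByExpr, scaled by TMM (factors 0.757 to 1.33) and tested in 1 fit of all libraries with edgeR 4.0.16 in R 4.3.3, over 8 comparisons, with Benjamini-Hochberg adjustment over 15338 genes. The step was tested on simulated data. The SE is the fold change over the square root of its F statistic. Levels per kb use the union of exons, and positions come from GENCODE vM21 on mm10. Members, lists and alternatives were chosen with earlier results of these data known. Every member is named by role. Full values are given for members called in a CCl4 comparison, at most 3 per role and comparison, and of other lists the 3 called genes with the smallest p. Replicates were no copies of each other (lowest chi-square per degree of freedom 22.9 over 90 pairs). Alternatives were other scalings and filters, the replicate block, the compared groups alone, DESeq2 1.42.0, another oil reference, and leaving out libraries. Counts are taken as reads without molecular identifiers.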

Additional observations from a re-analysis of the deposited data

Results flagged for a closer look

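The CCl4 effect differed between month 12 and month 2 (edgeR interaction, adjusted p below 0.05) in 17 members, and the difference, on the log2 scale, is month 12 minus month 2. It was negative in Fcgr2b (-0.61), Dnase1l3 (-0.87), Kdr (-0.56), Gata4 (-0.78), Maf (-0.57), Bmp2 (-0.95), Wnt2 (-1.04), Rspo3 (-0.80), Tek (-0.73) and Selp (-0.50). It was positive in Flt4 (1.15), Pecam1 (0.56), Apln (4.70), Esm1 (4.47), Emcn (0.97), Efnb2 (0.95) and Dll4 (1.01).

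In 9 of the 240 combinations of a member and a group, 1 mouse stood far from the other 5 by Dixon's criterion, which chance alone meets in about 1 of 20 groups. Month 12 oil replicate 2 was the highest of its group in Cd34 (37.5 CPM), Cd200 (7.25 CPM) and Thbd (27.6 CPM). Month 6 CCl4 replicate 2 was high in Cd34 (31.1 CPM, the others between 11.1 and 15 CPM). The remaining 5 were Esm1 in month 2 CCl4 replicate 1 (5.72 CPM), Gata4 in month 6 CCl4 replicate 1 (16.8 CPM), Flt1 in month 2 oil replicate 1 (15.4 CPM), Bmp2 in month 0 replicate 3 (21.1 CPM) and Pecam1 in month 0 replicate 5 (35.7 CPM).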

How the results depend on the processing

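Of the 28 members called at month 12, 24 were called without each mouse in turn, as were 7 of 11 at month 2, 2 of 7 at month 6 (Esm1 and Ackr1) and 14 of 17 in the interaction. Leaving out 1 mouse gave 8 to 11 calls at month 2, 3 to 15 at month 6, 26 to 30 at month 12, 14 to 18 in the interaction, 21 to 26 for month 12 against month 6 CCl4 and 5 to 11 for month 2 oil against month 0. Library totals alone, which raise the median gene, gave 26 calls at month 2, 30 at month 6, 7 in the interaction and 1 between oil groups, and turned Fcgr2b (0.23), Kdr (0.27), Tek (0.10) and Selp (0.13) round at month 12. That scaling called 3160 of the 15338 tested genes higher at month 2, 8884 at month 6 and 10331 at month 12. DESeq2 called all 28 month 12 members again. Library totals alone kept 18 of the 28 month 12 calls, 11 of 11 at month 2 and 7 of 7 at month 6. The compared groups alone kept 23 of the 28 (not Clec4g, Fcgr2b, Bmp2, Wnt2 and Ackr1), and no low-count filter kept 26 (not Fcgr2b and Wnt2). Without the filter Wnt9b, Plvap and Sox17 were not called at month 2 nor Tie1 and Pecam1 at month 6. The compared groups alone gave 11 calls at month 6 and 1 between oil groups, as DESeq2 did there (1), and month 12 oil as the sole reference gave 4 at month 6, 2 of them among the 7 (not Tie1, Pecam1, Sox17, Vwf and Nos3). No low-count filter gave 6 for month 2 oil against month 0. Without the 5 libraries named above, chosen after seeing the data, 5 members were called at month 2 and 29 at month 12, 26 of them among the 28. The interaction then had 11 calls (not Gata4, Maf, Bmp2, Wnt2, Rspo3 and Selp). The cause was not tested. Genes under about 1 CPM, such as Apln and Aplnr, are limited by depth.

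With the replicate number as a block, 10 members were called at month 2, 6 at month 6, 30 at month 12 and 18 in the interaction. Correlations of same-numbered mice ran from -0.46 to 0.05 at month 2 and -0.07 to 0.04 at month 12. For month 6 CCl4 they ran from -0.24 to 0.26 with month 12 oil and from -0.29 to 0.19 with month 2 oil, with 2 of 6 pairs over 0.1 in each. As not every pair was over 0.1 in any comparison, the numbers were not taken to pair the mice.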
